A study of Mus musculus with 8 samples.

Results

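Galectins are lectins that bind beta-galactosides, and the genes described here are 7 genes of this family, *Lgals1*, *Lgals3*, *Lgals4*, *Lgals8*, *Lgals9*, *Lgals12* and the galectin-like *Lgalsl*, together with *Lgals3bp*, which encodes a secreted binding partner of Galectin-3. The 8 genes were taken by symbol from the deposited table of 55487 genes, each has a single row there, and 7 of the 8 passed the filter on low counts while *Lgals12* did not. They were measured by RNA sequencing in muscle stem cells (MuSCs) of young male C57BL/6 mice 21 days after either sciatic nerve transection (DEN) or Sham surgery, in which the nerve was exposed and left uncut. Each group has 4 mice with 1 library per mouse, all mice were operated on under anesthesia with the analgesic Meloxicam, and MuSCs were sorted from hind limb muscles as α7-integrin+, Sca-1-, CD11b-, CD31- and CD45- cells. The study left out DEN replicate 1 as an outlier, so 3 DEN are compared with 4 Sham libraries and DEN replicate 1 is given apart. The nerve was cut on 1 side, and whether hind limb muscle of the other side entered the sort is not given in the sources used here.

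Galectins are made in the cytosol without a signal peptide and leave the cell by an unconventional route. Outside the cell they cross-link glycoproteins that carry N-acetyllactosamine, and inside the cell some of them bind glycans that become exposed when endosomes or lysosomes break. In skeletal muscle, Galectin-1 is abundant and is known to support myoblast fusion, and Galectin-3 is a product of macrophages and other activated cells that is raised after muscle injury.

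The libraries held 26627173 to 34145854 counts, of which 0.0866 to 0.107% fell on the 8 genes. The MuSC marker *Pax7* was at 105 to 157 RPM (read counts scaled to the total of the library) in each of the 8 libraries. Of 12 MuSC markers tested, *Myf5* and *Cdh15* were higher after DEN, *Myod1* was lower and 9, with *Pax7* among them, did not pass. *Ptprc*, which encodes the CD45 that the sort selects against, was at 0 to 0.561 RPM, and *Itgam*, which encodes CD11b, at 0 to 0.135 RPM. The other markers selected against were at 0.127 to 4.66 RPM (*Pecam1*, CD31) and at 0.0376 to 8.33 RPM (*Ly6a*, Sca-1). Transcripts of a macrophage marker list were nonetheless at 130.8 RPM in DEN replicate 2, against 8.55 to 54.5 RPM in the other 6 compared libraries. Mitochondrial genes took 2.35 to 2.84% of the counts after DEN and 3.67 to 5.99% after Sham surgery, and the part of this in the results below was not tested. Of 17454 genes tested, 10.6% passed an adjusted p of 0.05 in edgeR's quasi-likelihood test (5.29% higher and 5.32% lower after DEN). These were 1853 genes, with 1098 called without DEN replicate 2 and 1231 without DEN replicate 3. All adjusted p-values below are from this test unless another is named, and a positive log2 fold change means a higher level after DEN. Of the 7 genes tested here, 3 passed. *Lgals3* and *Lgals3bp* were higher and *Lgals4* was lower after DEN, while *Lgals1*, *Lgals8*, *Lgals9* and *Lgalsl* did not pass the test. The median of the 7 log2 fold changes was 0.22, beside −0.001 over all genes tested.

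*Lgals3* (ENSMUSG00000050335) encodes Galectin-3, the chimera-type galectin in which a carbohydrate recognition domain follows a tail rich in proline and glycine. The gene lies on the plus strand of chromosome 14 of GRCm38 from 47367751 to 47386160, with 6 annotated transcripts and no exon shared with another gene. Its RefSeq promoter, the 250 bases before and 50 bases from the start of transcription, is shown because this gene changed most among the galectins. The window lies inside the annotated gene, downstream of the first GENCODE transcript start. No letters are in capitals because the 3 motifs searched for have no match in it.
*Lgals3* promoter, chr14:47373610-47373909, plus strand: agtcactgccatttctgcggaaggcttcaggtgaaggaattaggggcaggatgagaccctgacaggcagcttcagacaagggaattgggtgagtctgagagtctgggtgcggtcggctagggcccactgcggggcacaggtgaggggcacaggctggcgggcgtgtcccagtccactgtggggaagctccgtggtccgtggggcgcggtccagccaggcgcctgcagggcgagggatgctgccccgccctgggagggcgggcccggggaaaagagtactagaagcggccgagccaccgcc
The 3 DEN libraries held 42.2, 42.6 and 41.0 RPM of *Lgals3* (1251, 1346 and 1171 counts). The 4 Sham libraries held 12.8, 14.97, 19.97 and 12.1 RPM (421, 511, 580 and 357 counts). The groups did not overlap, as was so for 23.2% of all genes tested (11.9% higher and 11.3% lower after DEN). The coefficient of variation was 2.00% over the 3 DEN libraries compared and 23.8% over the Sham libraries. With DEN replicate 1, which lay apart, the DEN mean was 38.6 ± 6.69 RPM (SD, n = 4). The mean was 42.0 ± 0.837 RPM after DEN (SD, n = 3) and 14.96 ± 3.56 RPM after Sham surgery (SD, n = 4). The log2 fold change was 1.49 (standard error 0.16, 95% confidence interval 1.13 to 1.85, adjusted p = 0.000358), or 2.81-fold. By p-value *Lgals3* ranked 120 of the 17454 genes, and by size of rise 297. DEN replicate 1 was at 28.7 RPM, between the Sham and the other DEN libraries. Including it gave a log2 fold change of 1.37 (adjusted p = 0.000754).

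Macrophages carry much Galectin-3, so their markers are set beside this result. Of 13 macrophage and myeloid markers, 9 passed the count filter and 1 of these (*C1qb*) was called, on 15.5 RPM in DEN replicate 2 alone, beside 0.443 and 0.245 RPM in DEN replicates 3 and 4 and 0.103 to 0.339 RPM in the Sham libraries. The summed RPM of the 13 was 130.8, 9.91 and 8.55 in DEN replicates 2 to 4, 45.8, 23.0, 54.5 and 18.0 in Sham replicates 1 to 4, and 5.45 in DEN replicate 1. Most of the sum in each Sham library was *Lyz2*, at 38.5, 16.3, 47.2 and 11.8 RPM in Sham replicates 1 to 4. In DEN replicates 2 to 4 *Lyz2* was at 59.4, 1.62 and 0.561 RPM. *Adgre1*, which encodes the macrophage surface protein F4/80, was at 2.30, 0.0317 and 0.771 RPM in DEN replicates 2 to 4. It was at 0.2375 RPM in Sham replicate 4 and at 0 in the other 3 Sham libraries and in DEN replicate 1. *Lgals3* held 41.0 to 42.6 RPM in 3 DEN libraries whose summed macrophage markers ran from 8.55 to 130.8 RPM. That sum leans on *Lyz2*, which was the only negative one of the 9 tested markers (−0.47 on the log2 scale). Their median was 1.01, the same direction as *Lgals3*. *Fcgr3*, which did not pass, was at 3.88, 0.380 and 0.666 RPM in DEN replicates 2 to 4. It was at 0.304, 0, 0.138 and 0.339 RPM in Sham replicates 1 to 4, and at 0 in DEN replicate 1. Without DEN replicate 2, the log2 fold change of *Lgals3* was 1.49 (adjusted p = 0.00204). The part of macrophages, or of other cells that carry Galectin-3, in the rise of *Lgals3* was not tested. In such bulk libraries, fewer cells of a type and less RNA per cell cannot be told apart.

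*Lgals3bp* (ENSMUSG00000033880) encodes a secreted glycoprotein with a scavenger receptor domain that binds Galectin-3 and is itself no galectin. It lies on the minus strand of chromosome 11 from 118392751 to 118402092, with 5 transcripts. It is known as an interferon-inducible gene, and its promoter is shown for that reason, with no motif match to mark.
*Lgals3bp* promoter, chr11:118401910-118402209, minus strand: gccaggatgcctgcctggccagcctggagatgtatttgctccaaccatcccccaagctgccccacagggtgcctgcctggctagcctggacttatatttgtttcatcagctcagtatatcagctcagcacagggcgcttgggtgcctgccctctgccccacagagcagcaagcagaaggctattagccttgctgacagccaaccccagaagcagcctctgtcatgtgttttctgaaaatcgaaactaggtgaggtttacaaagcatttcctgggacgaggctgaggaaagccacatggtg
DEN replicates 2 to 4 held 106, 86.2 and 66.9 RPM, and Sham replicates 1 to 4 held 48.6, 56.6, 55.2 and 68.4 RPM. Sham replicate 4 lay above DEN replicate 4, so the groups overlapped. The mean was 86.5 ± 19.7 RPM after DEN (SD, n = 3) and 57.2 ± 8.21 RPM after Sham surgery (SD, n = 4), a log2 fold change of 0.60 (standard error 0.15, 95% confidence interval 0.26 to 0.94, adjusted p = 0.0333). DEN replicate 1 was at 75.5 RPM, within the DEN range, and including it gave a log2 fold change of 0.56 (adjusted p = 0.0315). DEN replicate 2, which held the macrophage transcripts, was also the highest for *Lgals3bp*. Without it the log2 fold change was 0.43 (adjusted p = 0.131), and the part of those transcripts in the result was not tested. The call was lost as well on leaving out DEN replicate 3 (adjusted p = 0.0841) and on leaving out Sham replicate 1, 2 or 3 (adjusted p = 0.0652, 0.075 and 0.0733), and by DESeq2 its adjusted p was 0.00306.

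*Lgals4* (ENSMUSG00000053964) encodes Galectin-4, a tandem-repeat galectin with a pair of carbohydrate recognition domains that is best known from gut epithelium. It lies on the plus strand of chromosome 7 from 28833854 to 28841708, with 7 transcripts and no exon shared with another gene. Its promoter is shown because it was the galectin gene that fell, and again no base is marked. The window ends upstream of the GENCODE gene start given above, so all of it lies outside the annotated gene.
*Lgals4* promoter, chr7:28833544-28833843, plus strand: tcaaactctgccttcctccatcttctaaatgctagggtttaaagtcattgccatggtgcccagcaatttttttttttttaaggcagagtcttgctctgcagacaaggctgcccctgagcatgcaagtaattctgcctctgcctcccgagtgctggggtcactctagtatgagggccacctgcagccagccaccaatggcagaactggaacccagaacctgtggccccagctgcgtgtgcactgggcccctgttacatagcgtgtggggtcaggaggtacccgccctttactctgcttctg
*Lgals4* was at 4.80, 4.43 and 4.03 RPM in DEN replicates 2 to 4 (142, 140 and 115 counts). It was at 7.41, 8.00, 9.67 and 8.68 RPM in Sham replicates 1 to 4 (244, 273, 281 and 256 counts). Every DEN library compared lay below every Sham library, as was so for 11.3% of all genes tested. The mean was 4.42 ± 0.383 RPM after DEN (SD, n = 3) and 8.44 ± 0.973 RPM after Sham surgery (SD, n = 4), a log2 fold change of −0.93 (standard error 0.16, 95% confidence interval −1.29 to −0.57, adjusted p = 0.00535), or a fall of 47.6%. DEN replicate 1 held 2.55 RPM (68 counts), the lowest of the 8 libraries, and its inclusion gave −1.09 (adjusted p = 0.00542).

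Markers of epithelium, where *Lgals4* is usually found, were low in all libraries. The gut marker genes *Krt20* and *Cdx2* had 0 counts in all 8 libraries, and *Epcam*, an adhesion protein of epithelia, was at 0 RPM in all of the 4 Sham libraries, where *Lgals4* was highest. *Krt8*, a keratin, was at 0 in the Sham libraries and was higher after DEN, opposite to *Lgals4*. *Cdh1*, which encodes E-cadherin, had its lower values in the DEN libraries like *Lgals4*, with 0.574, 0 and 0.42 RPM in DEN replicates 2 to 4 and 2.37, 1.29, 1.48 and 1.43 RPM in Sham replicates 1 to 4 (log2 fold change −2.31, adjusted p = 0.0648). The summed RPM of 6 epithelial markers was 1.45 to 1.87 in the 3 DEN and 1.32 to 2.37 in the 4 Sham libraries. Some markers of Schwann cells, red blood cells and fibro-adipogenic progenitors were lower together with *Lgals4*. Of 7 Schwann cell markers tested, 3 were lower (*Mbp*, *S100b* and *Prx*), 1 was higher (*Sox10*) and 3 did not pass, and their summed RPM was 698 to 959 after DEN and 943 to 1281 after Sham surgery. *Pmp22*, which did not pass, held most of that sum. The study reports that some glial markers were enriched, such as *Ngfr*, and others reduced, such as *Mbp*. It does not exclude that the sorted cells contain glial cells. *Ngfr*, which is outside the 7 markers, was higher after DEN here (log2 fold change 2.06, adjusted p = 0.000382). Of 6 erythroid markers tested, 5 were lower, and their summed RPM was 1954 to 2959 after DEN and 5068 to 10240 after Sham surgery. Of 8 markers of fibro-adipogenic progenitors tested, 2 were lower (*Dcn* and *Col3a1*), 1 was higher (*Col1a1*) and 5 did not pass, and their summed RPM was 5215 to 5621 after DEN and 5763 to 7685 after Sham surgery. *Col3a1* and *Gsn*, the latter not called, held most of that sum. *Pdgfra* and *Ly6a*, which did not pass either, were at most at 1.82 and 8.33 RPM in the compared libraries. The part of any of these cell types in the fall of *Lgals4* was not tested.

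**Figure D1:**
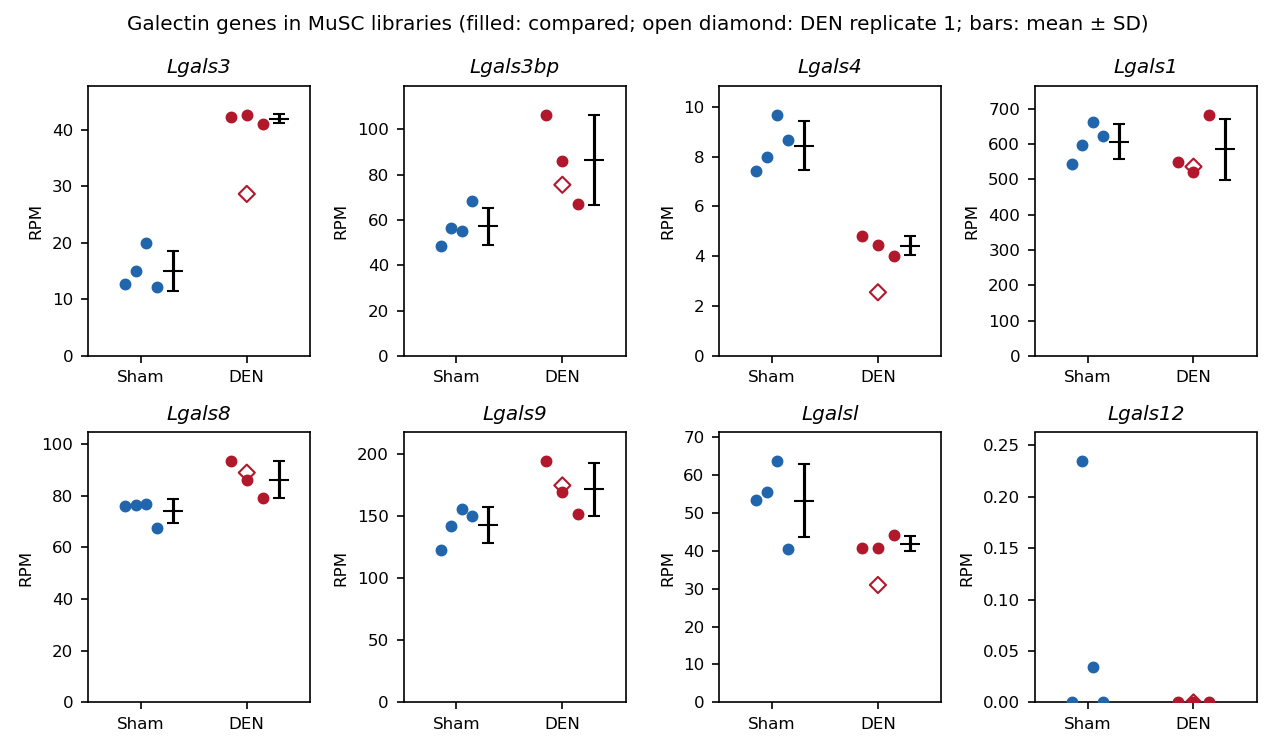
RPM of the 8 genes in each library on linear axes from 0, with Sham (blue) and DEN replicates 2 to 4 (red) as filled points, DEN replicate 1 as an open diamond, and the mean ± SD of the compared libraries beside them, except for *Lgals12*, which has points only. The 3 DEN points of *Lgals3* lie between 41.0 and 42.6 RPM, above all Sham points, and those of *Lgals4* between 4.03 and 4.80 RPM, below all Sham points.

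*Lgals1* (ENSMUSG00000068220, plus strand of chromosome 15 from 78926725 to 78930465) encodes Galectin-1, a prototype galectin that acts as a homodimer. It was at 551, 521 and 683 RPM in DEN replicates 2 to 4 and at 545, 598, 663 and 624 RPM in Sham replicates 1 to 4, so that DEN libraries held both the lowest and the highest value. The log2 fold change was −0.05 with a 95% confidence interval from −0.29 to 0.18 (adjusted p = 0.819), which leaves room for a fold between 0.818 and 1.14. DEN replicate 1, at 536 RPM, lay within the range of the other DEN libraries. Its pseudogene copies *Lgals1-ps1* and *Lgals1-ps2* have 0 counts in all 8 libraries, beside 142541 counts of *Lgals1*.

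*Lgals8* (ENSMUSG00000057554, minus strand of chromosome 13 from 12439415 to 12464944) encodes Galectin-8, a tandem-repeat galectin that binds glycans on damaged endosomes and integrins at the cell surface. The DEN libraries held 93.2, 86.1 and 79.0 RPM and the Sham libraries 76.1, 76.2, 76.6 and 67.4 RPM. The groups did not overlap, as was so for 23.2% of all genes tested (11.9% higher after DEN). The log2 fold change of 0.22 (95% confidence interval 0.04 to 0.40) did not pass the test (adjusted p = 0.127). DEN replicate 1 was at 88.9 RPM, also above every Sham library. Counting was without strand, and 155 bases of *Lgals8* exons are shared with *Heatr1* on the plus strand, whose own log2 fold change was 0.01 (adjusted p = 0.986).

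*Lgals9* (ENSMUSG00000001123, minus strand of chromosome 11 from 78962974 to 78984946) encodes Galectin-9, a tandem-repeat galectin that is induced by interferon and is a ligand of TIM-3 on T cells. It was the only one of the 6 genes with a promoter in the RefSeq table that matched any of the motifs, and its promoter is shown for its 2 matches, in capitals, to the interferon-stimulated response element, searched as TTTC, any 2 bases and TTTC on either strand.
*Lgals9* promoter, chr11:78984875-78985174, minus strand: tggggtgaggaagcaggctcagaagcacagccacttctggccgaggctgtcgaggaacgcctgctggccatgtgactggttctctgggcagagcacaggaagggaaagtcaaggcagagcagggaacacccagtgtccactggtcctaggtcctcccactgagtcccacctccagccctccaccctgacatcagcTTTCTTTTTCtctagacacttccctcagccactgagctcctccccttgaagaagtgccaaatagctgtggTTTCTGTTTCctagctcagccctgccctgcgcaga
Counting the start of transcription as base 0, the first match runs from base −55 to −46 and the second from base 15 to 24. Of 32851 mouse promoters of the same length, 3.44% held this motif on either strand, 7.81% the AP-1 letters TGANTCA and 8.3% the STAT letters TTCNNNGAA. A match describes letters and does not show that a factor binds there. *Lgals9* was at 194, 169 and 151 RPM in the DEN and at 123, 142, 156 and 150 RPM in the Sham libraries, and the groups overlapped at DEN replicate 4 and Sham replicate 3. The log2 fold change of 0.27 (95% confidence interval 0.03 to 0.50) did not pass the test (adjusted p = 0.143), and DEN replicate 1 was at 175 RPM. Promoters of *Lgals3*, *Lgals3bp*, *Lgals4*, *Lgals8* and *Lgalsl* hold none of these letters in this window, and those of *Lgals1* and *Lgals12* were not analysed here.

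*Lgalsl* (ENSMUSG00000042363, minus strand of chromosome 11 from 20823576 to 20831056) encodes a galectin-related protein that has the galectin fold but does not bind lactose. The DEN libraries held 40.6, 40.8 and 44.2 RPM and the Sham libraries 53.3, 55.6, 63.5 and 40.5 RPM. Sham replicate 4 was below all DEN libraries compared, while the other Sham libraries were above them. The log2 fold change was −0.35 (95% confidence interval −0.65 to −0.04, adjusted p = 0.14), and without Sham replicate 4 it was −0.46 and passed the test (adjusted p = 0.0239). DEN replicate 1 held the lowest value, 30.9 RPM.

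*Lgals12* (ENSMUSG00000024972, minus strand of chromosome 19 from 7596660 to 7607193) encodes Galectin-12, a galectin of adipocytes that sits on lipid droplets. It had 8 counts in Sham replicate 2, 1 count in Sham replicate 3 and 0 counts in the other 6 libraries. A count of 0 allows up to 3 counts in a library, so no difference between the groups was detectable at this depth. The summed RPM of 9 adipocyte markers was 84.0 to 197 in the DEN and 47.9 to 72.9 in the Sham libraries, with *Fabp4*, a fatty acid carrier that endothelium also makes, holding most of it. Of the 8 tested, *Fabp4* was higher (log2 fold change 0.94, adjusted p = 0.0492) and 7 did not pass, with a median of 1.47. The summed RPM of 7 endothelial markers was 250 to 270 in the DEN and 258 to 296 in the Sham libraries. Among other genes of the galectin fold, *Lgals2* had 4 to 18 counts in the 8 libraries (log2 fold change 0.81, adjusted p = 0.323), *Lgals7* 0 to 10 and *Grifin*, a lens protein, 0 to 2 counts, and the latter 2 were not tested.

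**Figure D2:**
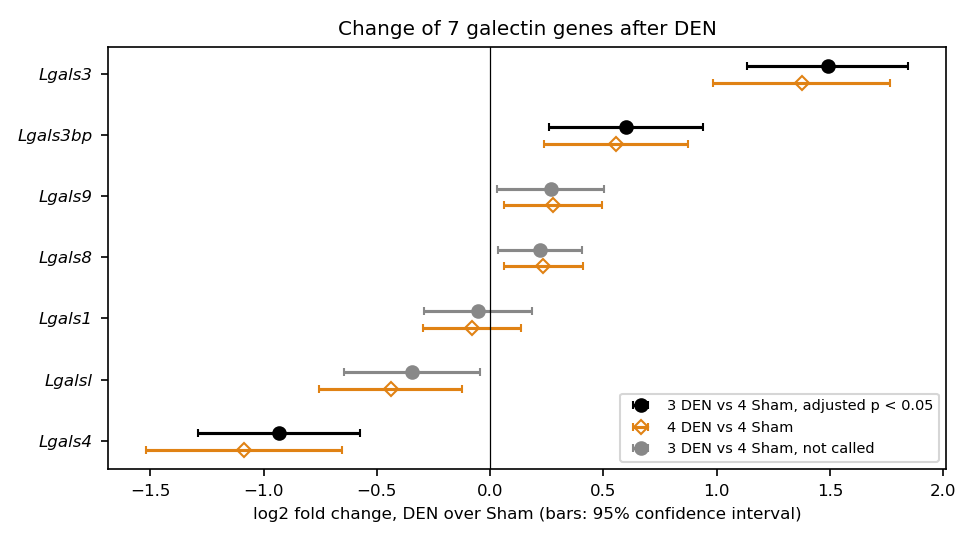
Log2 fold change of DEN over Sham (horizontal axis) for the 7 genes tested, with 95% confidence intervals, from 3 against 4 libraries (circles, black where the adjusted p was under 0.05 and grey where not) and from 4 against 4 libraries (open diamonds). *Lgals3* at 1.49 and *Lgals4* at −0.93 lie farthest from 0 on either side, and adding DEN replicate 1 moved them to 1.37 and −1.09.

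Levels of different genes were compared per gene length, as RPKM. In Sham libraries the order was *Lgals1* at 673 ± 54.9 RPKM, *Lgals9* at 66.7 ± 6.72, *Lgals3bp* at 20.09 ± 2.88, *Lgals8* at 20.08 ± 1.21, *Lgalsl* at 12.9 ± 2.32, *Lgals3* at 8.05 ± 1.91, *Lgals4* at 3.65 ± 0.420 and *Lgals12* at 0.0242 RPKM (SD, n = 4). The ranges over the Sham libraries overlapped between *Lgals3bp* and *Lgals8* and between *Lgalsl* and *Lgals3*, and the other neighbours were apart. *Lgals1* alone held 76.4 to 83.9% of the summed RPKM of the 8 genes in the 8 libraries. In DEN libraries *Lgals3*, at 22.6 ± 0.451 RPKM (SD, n = 3), stood above *Lgalsl* at 10.2 ± 0.495 RPKM and close to *Lgals8* at 23.4 ± 1.93 RPKM, whose range of 21.4 to 25.3 RPKM contains all of the *Lgals3* values. The other genes kept their place in the order.

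The balance between galectins was then followed within each library. The ratio of *Lgals3* to *Lgals4* RPKM was 10.98, 11.98 and 12.7 in DEN replicates 2 to 4 and 2.15, 2.33, 2.57 and 1.74 in Sham replicates 1 to 4. In DEN replicate 1 it was 13.98, above the other DEN libraries, with both *Lgals3* and *Lgals4* lower than in those. *Lgals1* exceeded *Lgals3* by 25.2 to 34.3 times in the DEN and by 68.3 to 106 times in the Sham libraries, with 38.5 times in DEN replicate 1. *Lgals3bp* exceeded *Lgals3* in every library, by 1.06 to 1.64 times in DEN replicates 2 to 4 and by 1.80 to 3.68 times in the Sham libraries. The summed RPKM of the 8 genes, 745 to 907 in the DEN and 722 to 878 in the Sham libraries, overlapped between the groups.

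**Figure D3:**
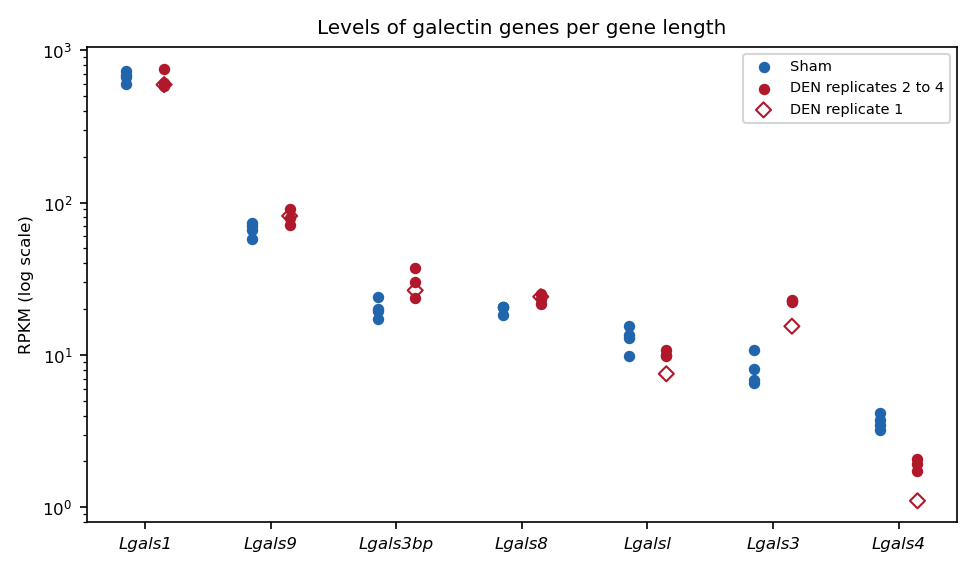
RPKM (log axis) of the 7 genes tested in Sham libraries (blue), DEN replicates 2 to 4 (red) and DEN replicate 1 (open diamonds), ordered by the Sham mean. *Lgals1* stands above all others at 577 to 756 RPKM, and *Lgals3*, with a mean below that of *Lgalsl* in Sham libraries (8.05 and 12.9 RPKM), lies above it in DEN libraries (22.6 and 10.2 RPKM).

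N-acetyllactosamine, the chain that galectins bind, is built by branching enzymes and galactosyltransferases. Of 24 tested genes for this synthesis, 2 were higher and 1 lower after DEN (12.5%, beside 10.6% of all genes), and the median log2 fold change was 0.11. *B4galt5*, a galactosyltransferase, rose from 26.1 to 36.3 RPM (log2 fold change 0.48, adjusted p = 0.0123), and *Mgat2*, an enzyme of N-glycan branching, from 101.6 to 120.8 RPM (0.25, adjusted p = 0.0453). *Man2a1*, a Golgi mannosidase that acts before branching, fell from 47.5 to 35.1 RPM (−0.44, adjusted p = 0.0147). Leaving out any 1 library kept the call of *B4galt5*, whereas *Man2a1* was not called without DEN replicate 2 or 4 (adjusted p up to 0.0578), and *Mgat2* was called only without Sham replicate 4 (adjusted p up to 0.124 without another library). *Mgat5*, the branching enzyme whose products Galectin-3 is known to bind, was at −0.42 and did not pass (adjusted p = 0.195). Of 9 genes that add or remove sialic acid, 2 sialyltransferases were lower and none was higher (22.2%, median −0.13), *St3gal4* at −0.33 (adjusted p = 0.0363) and *St3gal5*, which makes the ganglioside GM3, at −0.32 (adjusted p = 0.0377). *St3gal4* was called only without Sham replicate 3 and *St3gal5* only without Sham replicate 2 or 3, with adjusted p up to 0.112 and 0.122 without another library. *St6gal1*, whose α2,6-linked sialic acid blocks binding of Galectin-1, was at −0.13 (adjusted p = 0.583).

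Of 23 tested glycoproteins that galectins bind, 4 were lower and 1 was higher after DEN (21.7%, beside 10.6% of all genes, median −0.04). The lower ones are matrix proteins and a laminin receptor, while the laminin chain *Lama2* and the integrin subunits *Itgb1*, *Itga3* and *Itga7* did not pass. The integrin subunit *Itga6*, at a log2 fold change of −0.75, narrowly missed the threshold (adjusted p = 0.0514). With all 8 libraries it was at −0.75 and passed (adjusted p = 0.0289). Fibronectin (*Fn1*) fell from 45.6 to 31.8 RPM (log2 fold change −0.52, adjusted p = 0.00829), the laminin chain *Lamb1* from 99.6 to 74.1 RPM (−0.43, adjusted p = 0.0125), the laminin chain *Lamc1* from 578 to 439 RPM (−0.40, adjusted p = 0.0432) and the integrin subunit *Itgb4* from 27.2 to 14.3 RPM (−0.93, adjusted p = 0.0192). The higher one, named after its value was seen, was *P4hb*, a protein disulfide isomerase that binds Galectin-9 (log2 fold change 0.29, adjusted p = 0.048). *Fn1* was called whichever library was left out. *Lamb1* and *Itgb4* were not called without DEN replicate 2 or 4 (adjusted p up to 0.0575 and 0.0794), *Lamc1* was called only without Sham replicate 1 or 2 (adjusted p up to 0.135 without another library), and *P4hb* only without Sham replicate 4 (up to 0.156). Of 16 partners of galectins at damaged lysosomes, only *Sqstm1*, the autophagy receptor p62, was called. It rose from 1073 to 1429 RPM (log2 fold change 0.42, adjusted p = 0.0102) and was called whichever library was left out. The list's median was 0.13 and 6.25% of it was called.

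**Figure D4:**
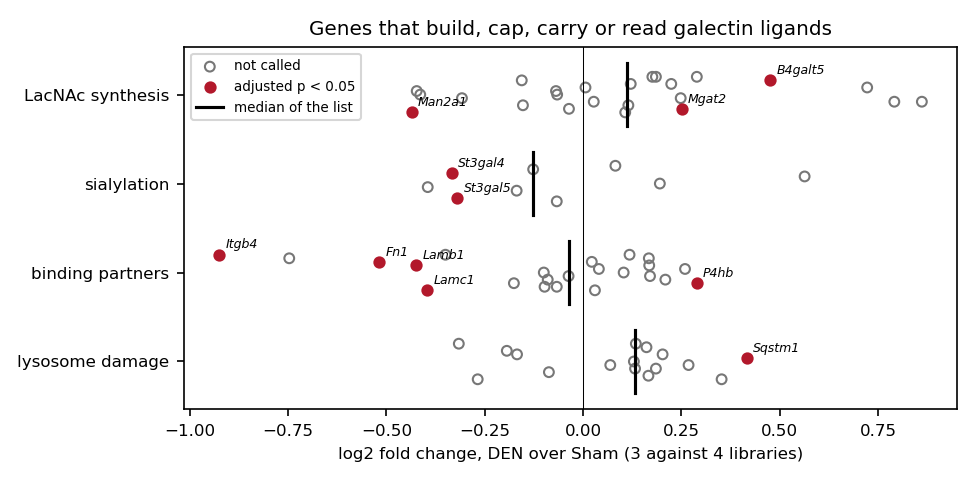
Log2 fold change of DEN over Sham (horizontal axis) for each tested gene of 4 lists, filled and named where the adjusted p was under 0.05, with the list's median as a line. The medians lie at 0.11, −0.13, −0.04 and 0.13 from top to bottom, and 11 genes are filled.

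For each galectin gene that differed, the genes with the most similar profile were sought by Pearson correlation of log2 CPM over the 8 libraries, among 11643 expressed genes. The coefficient takes in the difference between DEN and Sham as well as the spread within the groups, and is given as a description. *Lgals3* was closest to *Timp3*, an inhibitor of metalloproteases, to the adhesion receptor *Adgrg1* and to *Tent5a* (r = 0.988, 0.987 and 0.983), whose log2 fold changes were 0.62, 2.42 and 1.88. *Lgals4* was closest to *Slc38a11*, *Tmem119* and *Prmt6* (r = 0.993, 0.988 and 0.988), with log2 fold changes of −0.73, −0.85 and −0.28. *Lgals3bp* was closest to the kinase *Map2k3*, *Nrbp1* and *Slc49a4* (r = 0.98, 0.975 and 0.974), with log2 fold changes of 0.68, 0.26 and 0.25. *Prmt6*, *Nrbp1* and *Slc49a4* did not pass the test.

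**Figure D5:**
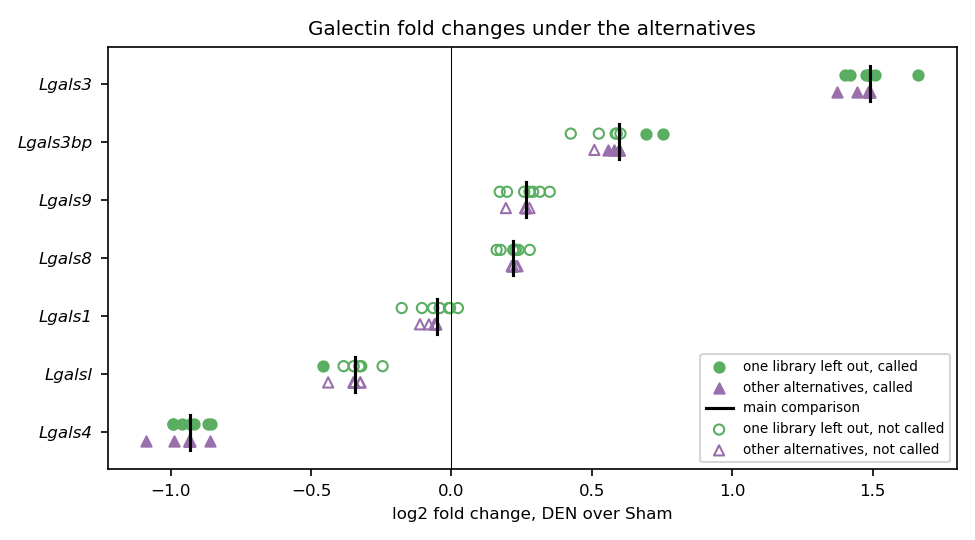
Log2 fold change of DEN over Sham (horizontal axis) for the 7 genes tested when 1 library was left out (green circles) and under the other alternatives (purple triangles), filled where the adjusted p was under 0.05, with the value of the main comparison as a black line. All points of *Lgals3* (1.37 to 1.66) and *Lgals4* (−1.09 to −0.86) are filled, those of *Lgals3bp* are filled in part, and those of *Lgals1* lie on both sides of 0.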

How the data were processed

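RNA of sorted MuSCs from 8 mice was amplified as full-length cDNA (SMART-Seq v4) and sequenced from single ends. The deposited counts were made by the authors with bcl2fastq 2.20.0.422, cutadapt 2.1, TopHat2 2.1.0 on GRCm38 and featureCounts 1.6.5 without strand, versions as in the submitters' processing notes. RPM and RPKM were deposited too, the former being counts over the library total and the latter RPM over gene length. The length used equals the exon union of GENCODE M21 for all 8 genes.

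Genes were kept by filterByExpr (minimum count 10, minimum total 15), scaled by TMM and compared by the quasi-likelihood test of edgeR 4.0.16 in R 4.3.3, with Benjamini-Hochberg adjustment over 17454 genes (3 DEN and 4 Sham libraries) or 17008 (all 8). On simulated counts for 3 against 4 libraries and 17454 genes, the test recovered 55% of genes changed by 1 and 88% of those changed by 2 on the log2 scale. Confidence intervals are at 95%. Alternatives were DESeq2 1.42.0, RLE and total-count scaling, no count filter, a replicate block, limma 3.58.1 on log2(RPM + 0.5) and leaving out each library. The members and lists were chosen with earlier results of these data known. From each list up to 4 called genes with the smallest adjusted p are named, or 2 with the highest expression. For each called member the 3 most similar genes are named (mean log2 CPM above 1). *Mgat5*, *St6gal1*, *Heatr1*, *Lgals7* and *Grifin* and the marker genes were chosen after their values were seen. Positions are those of GENCODE M21 and promoters those of RefSeq on GRCm38.p6, which held 6 of the 8 genes. Libraries of 1 group differed by more than counting noise (chi-square per degree of freedom 15.3 to 42.7).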

Additional observations from a re-analysis of the deposited data

Results flagged for a closer look

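Within groups of 4 libraries, 3 values lay far from the rest by Dixon's ratio, of 15 groups tested, and chance gives about 1 in 20. *Lgals3* in DEN replicate 1, at 28.65 RPM, lay below the 41.0 to 42.6 RPM of the other DEN libraries. *Lgals8* in Sham replicate 4, at 67.4 RPM (67.37), lay below the 76.1 to 76.6 RPM of the other Sham libraries. *Lgals12* in Sham replicate 2, at 0.234 RPM, rests on 8 counts, and the other Sham libraries held at most 1.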

How the results depend on the processing

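*Lgals3* and *Lgals4* were called under all 14 alternatives, with log2 fold changes from 1.37 to 1.66 and from −1.09 to −0.86, and *Lgals8* and *Lgals9* under none. Leaving out 1 library at a time gave 0.43 to 0.76 for *Lgals3bp* (called in 2 of 7 cases), −0.46 to −0.25 for *Lgalsl* (called in 1 of 7) and −0.18 to 0.02 for *Lgals1*, whose sign turned to 0.023 without DEN replicate 3 (adjusted p = 0.936). It gave 1098 to 1814 genes called among all tested (lowest without DEN replicate 2), 2 to 4 of the galectin genes and 3 to 11 of the 73 tested genes of the lists (3 without DEN replicate 4, 4 without DEN replicate 2 and 6 without DEN replicate 3), where the main comparison called 1853, 3 and 11. DESeq2 called 17 listed genes. Replicate numbers in the labels did not pair the samples (correlations of deviations −0.008, 0.008 and −0.057, and no DEN library was closest to its own number). With the replicate block 1335 genes, 2 galectin genes and 6 listed genes were called, and *Lgals3bp* was at 0.51 (adjusted p = 0.119). *Lgals12*, untested in the main comparison, had an adjusted p of 0.322 without the count filter. Intervals of *Lgals1*, *Lgals8* and *Lgals9* limit the folds that these libraries can tell apart. Causes of these changes were not tested.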
